A study of Mus musculus with 221 samples.

Results

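Late arterial hemogenic endothelium (HE) of the mouse yolk sac, the cluster named HE-YSA (late) or a2, was compared with cluster p1, labelled as an early yolk sac progenitor skewed to the lymphomyeloid progenitor (LMP) fate. The cells were chosen by the cluster name in their column, and those with a total of at least 17595 estimated counts were kept, which gave 29 of 30 a2 cells and 17 of 18 p1 cells, or 46 of the 221 cells with nanopore libraries. The embryos came from males carrying a Gfi1 GFP or a Runx1b RFP reporter on C57BL/6JOlaHsd and wild-type Hsd:ICR (CD-1) females, with embryos of 1 reporter and of both among those sorted, and the Gfi1 reporter is a knock-in at the gene itself. Cells positive for both reporters were taken from embryos that carried both, and each library name holds at most 1 of the reporter genes. Single cells had been sorted as KIT+ CD31+, negative for CD41, CD45 and TER119, and positive for a reporter. All 29 a2 cells have Gfi1 in the library name, against 5 of 17 p1 cells, and the other 12 p1 cells have Runx1, so sorting gate and cluster cannot be told apart outside those 5 cells. The a2 cells were 21 of E10.5, 7 of E9.5 and 1 of E9.0, and the p1 cells 15 of E10.5 and 2 of E9.5. Early arterial HE (a1), late plexus HE (b3) and the other progenitor cluster, p2, are given beside them. Most b3 and p2 cells were of E9.0 or E9.5. Most a1 cells have Gfi1 in the library name, most p2 cells have Runx1, and b3 has cells of both kinds. No treatment was given. Full-length cDNA of each cell was read on a nanopore instrument in 3 runs, with 10, 10 and 9 a2 cells and 6, 5 and 6 p1 cells.

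HE is the endothelium from which blood cells bud in the embryo, through an endothelial-to-hematopoietic transition (EHT) in which vascular genes are shut down and blood genes are turned on. RUNX1 starts the blood program, and its targets GFI1 and GFI1B repress endothelial genes together with the histone demethylase LSD1 and its CoREST partners. In the yolk sac, HE of the capillary plexus gives rise mostly to erythromyeloid progenitors, and HE of the large arteries to lymphomyeloid progenitors.

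No embryo is named for a cell, so each cluster counts as 1 sample. The differences below have no replicate check and no test. Each cluster had also been defined on short reads of the same cDNA, so a difference in a gene that helped to define a cluster is a description and not independent evidence. Levels are estimated counts summed over the cells of a cluster and given as CPM, relative to the total count of that cluster, and intervals are 95% exact intervals that cover counting error only.

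The promoters of 3 genes are shown because the results turn on them. Fcer1g and Crip2 were the only genes of those compared whose single-cell levels did not overlap between a2 and p1, and Gfi1 is the repressor that names the sorting gate of a2. The windows are from RefSeq on GRCm38.p6 and run from 250 bases before to 50 bases after the annotated start, on the gene's own strand. They are chr1:171234300-171234599 (minus strand) for Fcer1g, chr12:113139986-113140285 (plus strand) for the first of the starts listed for Crip2, and chr5:107724294-107724593 (minus strand) for the first of those listed for Gfi1. Capitals mark CCGGAA, the core of ETS factor motifs, and TGTGGT, the core of the RUNX motif, searched on both strands.
Fcer1g: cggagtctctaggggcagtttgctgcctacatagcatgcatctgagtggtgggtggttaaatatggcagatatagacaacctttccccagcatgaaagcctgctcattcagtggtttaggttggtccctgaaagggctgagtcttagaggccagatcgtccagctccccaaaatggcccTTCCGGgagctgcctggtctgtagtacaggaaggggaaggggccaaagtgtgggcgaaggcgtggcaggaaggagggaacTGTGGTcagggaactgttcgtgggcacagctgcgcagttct
Crip2: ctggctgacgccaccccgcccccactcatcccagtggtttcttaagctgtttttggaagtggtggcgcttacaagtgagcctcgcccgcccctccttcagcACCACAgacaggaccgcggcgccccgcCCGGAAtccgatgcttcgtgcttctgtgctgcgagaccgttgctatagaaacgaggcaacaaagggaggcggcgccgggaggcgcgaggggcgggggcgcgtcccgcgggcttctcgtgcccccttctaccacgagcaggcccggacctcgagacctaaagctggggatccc
Gfi1: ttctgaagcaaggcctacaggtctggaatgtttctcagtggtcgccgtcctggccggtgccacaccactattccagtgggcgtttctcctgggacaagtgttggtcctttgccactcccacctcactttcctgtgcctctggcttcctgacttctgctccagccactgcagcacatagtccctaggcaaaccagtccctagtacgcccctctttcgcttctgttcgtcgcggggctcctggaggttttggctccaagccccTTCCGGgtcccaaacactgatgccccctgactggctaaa
In the Fcer1g window CCGGAA lies on the opposite strand at -71 and TGTGGT on the gene's strand at 9, counted from the start. The Crip2 window holds TGTGGT on the opposite strand at -149 and CCGGAA at -122. The Gfi1 window holds CCGGAA on the opposite strand at 11. Crip2 and Gfi1 each have a further listed start, whose window is not shown and holds neither motif. Such matches are common: TGTGGT occurs in 16.8% and CCGGAA in 14.9% of all promoter windows of the table, and CCGGAA in 32.7% of the windows of the genes compared.

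Pooled over the runs, the depth of the clusters was alike, but within runs 1 and 3 it was not. In runs 1, 2 and 3 the median total was 39792.5, 22836.5 and 35666 in a2 and 29005.5, 21488 and 57606 in p1. The a2 cells held from 19105 to 65629 counts (median 34541) and the p1 cells from 19398 to 72659 (median 30858), for sums of 1064923 and 656575 counts. A group without a count in a gene therefore allows up to 2.82 CPM in a2 and 4.57 CPM in p1, which is 3 counts over the group. At equal depth a cell of a2 had from 2463 to 3932 genes with a count (median 3428), and a cell of p1 from 2910 to 4163 (median 3332). Of the a2 cells, 1 has AGM, the embryonic aorta region, in its library name.

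The cluster labels were checked against markers. The a2 cells carried Cdh5, the VE-cadherin of endothelial junctions, in 22 of 29 cells and Pecam1, which encodes the sorted CD31, in 26 of 29. Of the arterial markers, Vwf was found in 18, Gja4 in 15, Mecom in 14, Cd24a in 13 and Gja5 in 8 of the 29 cells, and Dll4 had no count in either cluster. This is a part of the planned markers: Sox17 is given below and Hey2 and Efnb2 are not given. Mecom comes from the arterial list of the study, of which 5 of 20 genes had at least 20 counts. The arterial label thus rests on few detected genes. The plexus markers were rare in a2. Lyve1 had counts in 4 a2 cells, with 36 of its 47 counts in 1 cell, and the 114 counts of Stab2 all came from 1 other a2 cell. In p1, Ptprc, which encodes CD45, had 12 counts in 4 of 17 cells. Il7r, Rag1, Rag2, Dntt, Igll1, Cd7 and Ccr9 had no count in either cluster, and Flt3 had 1 count in p1. At this depth these defining lymphoid genes were thus not detected in p1 beyond the count of Flt3. Ikzf1 and Il2rg, given with their values below, were higher in p1 than in a2. Il2rg was not particular to p1, as late plexus HE (b3) had 474 CPM in 22 of 24 cells.

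Of 4383 genes with at least 50 summed counts, 228 (5.2%) were higher in p1 and 307 (7.0%) were lower. Higher or lower means at least 2-fold over all cells, a log2 ratio of p1 over a2 of 1 or more in size, and the same direction in each of the 3 runs. A cluster without a count was set to 3 counts. The median log2 ratio of all genes compared was 0.05, and 0.04, -0.01 and 0.06 in runs 1, 2 and 3, so the bulk of the genes was centred near no difference. Of the higher genes 198 were protein coding, 10 were long noncoding RNAs and 19 pseudogenes, and of the lower genes 267, 25 and 13. When p1 was limited to its 5 cells of the Gfi1 gate, 217 of the 228 higher genes stayed above 0 and 157 of them at a log2 of 1 or more. Of the 307 lower genes 295 stayed below 0, with 225 at -1 or less. By the same rule on those 5 p1 cells alone, 229 of 3683 genes compared were higher and 97 lower. Run 2 holds 1 of the 5, with 21488 counts, and a group without a count in a run was set to 3 counts. A gene absent from that cell can then fail the rule for lower genes, so the 97 cannot be set directly against the 307. The 5 p1 cells are among those that chose the genes.

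**Figure D1:**
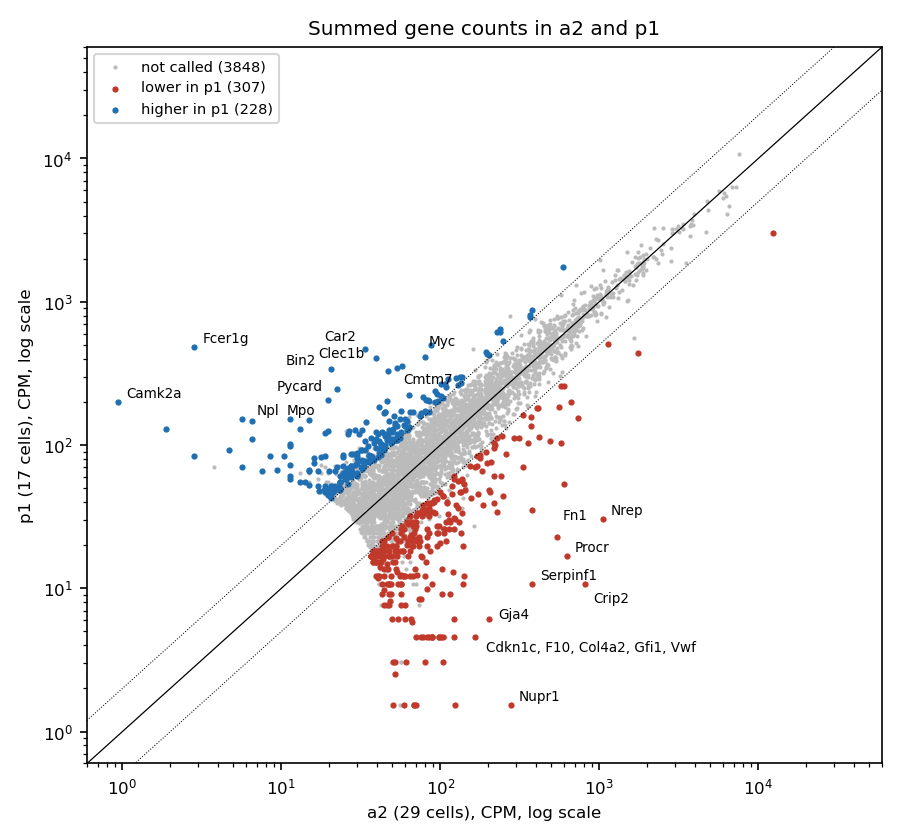
Summed level of the 4383 genes compared, in CPM on log axes, in a2 (x axis, 29 cells) and p1 (y axis, 17 cells). A gene without a count in a cluster is drawn at 3 counts, dotted lines mark 2-fold, blue points are the 228 genes higher in p1 and red points the 307 lower; Fcer1g stands far above the line and Crip2, Procr and Nrep far below it.

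Fcer1g (ENSMUSG00000058715.12), the signalling chain shared by activating Fc receptors, separated the clusters in single cells. It had 0 counts in all 29 a2 cells and 318 counts in p1, and every one of the 17 p1 cells carried it. Its cell levels in p1 ran from 46.2 to 1392 CPM with a median of 447 CPM, and the lowest p1 cell was above every a2 cell. The summed level was 484 CPM (433 to 541) in p1 and 172-fold higher than in a2, when a2 is set to 3 counts. All 5 p1 cells of the Gfi1 gate carried it. All 318 counts fell on the transcript Fcer1g-201. It was not absent from arterial HE, as early arterial HE (a1) had 23 counts in 4 of 23 cells, or 27.4 CPM. In the plexus trajectory the pattern was less sharp, as Fcer1g was at 317 CPM in 19 of 24 cells of late plexus HE (b3) and at 463 CPM in 20 of 20 cells of p2, the other progenitor cluster.

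The other genes with the highest ratios were in part known from myeloid cells and platelets. Mpo, the myeloperoxidase of granules, was at 19.7 CPM in a2 and 206 CPM in p1, a log2 ratio of 3.38 (2.71 to 4.12), with counts in 7 of 29 and 14 of 17 cells. The cells of the clusters overlapped. Clec1b, the podoplanin receptor CLEC-2 of platelets and myeloid cells, was at 39.4 CPM in a2 and 408 CPM in p1, a log2 ratio of 3.37 (2.90 to 3.88), and was found in 8 of 29 and 16 of 17 cells. Csf3r, the G-CSF receptor, was at 6.57 and 110 CPM, a log2 ratio of 4.06 (2.94 to 5.43), and 4.82 without 1 of its 29 a2 cells.

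Bin2, a BAR-domain protein of blood cells, was at 20.7 CPM in a2 and 338 CPM in p1, a log2 ratio of 4.03 (3.40 to 4.74), in 4 of 29 and 15 of 17 cells. A single a2 cell held 63.6% of its a2 counts, and without that cell the ratio was 5.41. Car2, a carbonic anhydrase, was at 33.8 and 465 CPM, a log2 ratio of 3.78 (3.28 to 4.32), and 4.52 without 1 a2 cell. Pycard, the inflammasome adaptor ASC, was at 22.5 and 245 CPM, a log2 ratio of 3.44. These 3 genes were seen in at least 15 of the 17 p1 cells and in at most 9 of the 29 a2 cells. Npl, a lyase of sialic acid breakdown, was at 11.3 and 152 CPM, a log2 ratio of 3.76 (2.89 to 4.76), in 4 of 29 and 12 of 17 cells, and 4.67 without 1 a2 cell. Cmtm7, which encodes a MARVEL-domain membrane protein, was at 53.5 and 347 CPM, a log2 ratio of 2.70.

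Camk2a and a long noncoding RNA were also among the highest ratios. Camk2a, a calcium and calmodulin-dependent kinase best known from neurons, had 1 count in a2 and 131 in p1, a log2 ratio of 7.73 with a counting interval of 5.23 to 13.05. It was present in 10 of 17 p1 cells, and 1 of them held 32.1% of the counts. Without the a2 cell that held its count there, a2 has no count and is set to 3 counts. The ratio of 6.11 found then comes from that setting and is not a smaller difference. The transcript Camk2a-204 took 97.7% of the p1 counts. The long noncoding RNA ENSMUSG00000136698 was at 57.3 and 358 CPM, a log2 ratio of 2.64, with 36.2% of its p1 counts in 1 cell, and it was found in 14 of 29 and 10 of 17 cells.

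Myc, the growth-promoting transcription factor, was at 79.8 CPM (63.8 to 98.7) in a2 and 414 CPM (366 to 467) in p1, a log2 ratio of 2.38 (2.02 to 2.75). The ratio was steady across runs, at 2.31, 2.34 and 2.22. In single cells it was uneven: the p1 cells ran from 0 to 1507 CPM with a median of 157 CPM, and the a2 cells from 0 to 457 CPM with a median of 0 CPM. It had counts in 10 of 29 a2 cells and 13 of 17 p1 cells, but in only 2 of the 5 p1 cells of the Gfi1 gate, against 11 of 12 of the Runx1 gate. The summed level went the other way, at 593 CPM in the Gfi1 gate and 330 CPM in the Runx1 gate, and with the Gfi1 gate cells alone the log2 ratio was 2.89.

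Blood genes as a group were higher in p1. Of 25 pan-hematopoietic genes, 16 had at least 20 counts and a median log2 ratio of 1.77, against 0.02 for all 7080 genes with that many counts, and 15 of the 16 were above 0. Of the 10 that were compared, 6 were higher in p1 and 1 was lower, beside the 5.2% and 7.0% of all genes. The counts of each list below are to be set beside the same 5.2% and 7.0%. Arhgdib, the RhoGDI of blood cells, was at 591 CPM in a2 and 1739 CPM in p1, a log2 ratio of 1.56 (1.42 to 1.70). Its cells ran from 0 to 1394 CPM in a2 (median 504 CPM) and from 716 to 4442 CPM in p1 (median 1697 CPM), so the clusters overlapped and every p1 cell carried it. Coro1a, an actin regulator of leukocytes, was at 364 and 780 CPM, a log2 ratio of 1.10, in 20 of 29 and 17 of 17 cells. Cd48 and Cd53, both leukocyte surface proteins, had log2 ratios of 4.48 and 3.31, and Cd48 was seen in 6 p1 cells and 1 a2 cell. Without 1 a2 cell each the ratios were 5.65 and 5.42. Ptpn6, the phosphatase SHP-1, and Fermt3, the kindlin of blood cells, had log2 ratios of 1.23 each, and Fermt3 was at 0.94 without 1 p1 cell, below the limit. Cd44, an adhesion receptor for hyaluronan, went the other way, from 110 CPM in a2 to 39.6 CPM in p1. Laptm5, a lysosomal protein of leukocytes, was at 176 and 282 CPM, a log2 ratio of 0.68, below the limit.

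The summed level of the 25 pan-hematopoietic genes did not overlap between the clusters in single cells. It ran from 96.1 to 3087 CPM in a2 (median 1722 CPM) and from 3093 to 7354 CPM in p1 (median 4280 CPM). The gap between the closest cells was small, 3087 against 3093 CPM. Within p1 the gates were alike, with medians of 4043 CPM in the 5 cells of the Gfi1 gate and 4337 CPM in the 12 of the Runx1 gate. The summed level of 27 endothelial genes did overlap. It ran from 1816 to 9830 CPM in a2 (median 5470 CPM) and from 750 to 4770 CPM in p1 (median 1885 CPM), and 9 of 17 p1 cells were at or above the lowest a2 cell.

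**Figure D2:**
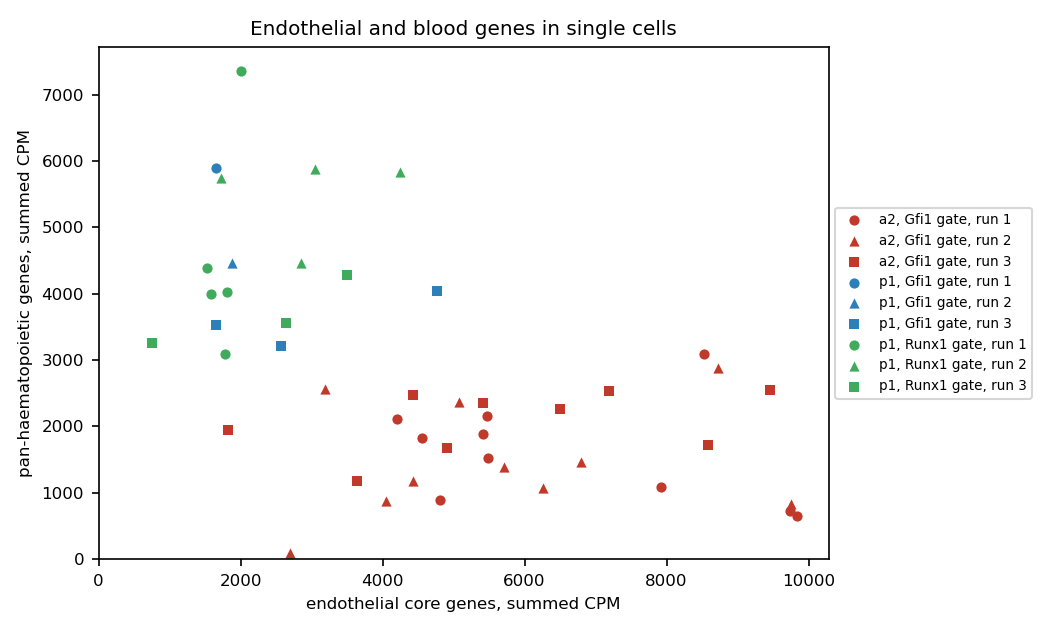
Each point is 1 cell: the x axis gives the summed CPM of 27 endothelial core genes and the y axis that of 25 pan-hematopoietic genes, with color for cluster and gate and shape for run. The p1 cells lie at or above 3093 CPM on the y axis in each run and gate and the a2 cells at or below 3087 CPM, while on the x axis the clusters overlap between 1816 and 4770 CPM.

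Most of the myeloid genes that were detected were higher in p1 as well. Of 18 myeloid genes, 8 had at least 20 counts, with a median log2 ratio of 2.82. Of these, 7 were above 0 and 1, Alox5ap, was below 0, at -0.51. Elane, Ctsg, Clec12a, Ly86, Cybb and Cebpe had no count in either cluster. Of these 8, 4 were higher in p1 and 0 lower, beside the 5.2% and 7.0% of all genes. The higher ones were Mpo, Csf3r, Fcer1g and Fcgr3, the last an Fc receptor at 16.9 and 51.8 CPM, a log2 ratio of 1.62 that was 2.42 without 1 a2 cell. The ratio of Csf3r was 4.82 without 1 a2 cell. Prtn3, a neutrophil protease, was at 25.4 and 125 CPM and Tyrobp, the adaptor DAP12, at 3.76 and 70.1 CPM, but neither met the rule, because neither cluster had a count in 1 of the runs. Lyz2, the lysozyme of macrophages and neutrophils, was at 127 and 178 CPM, a log2 ratio of 0.49, and below 0 in runs 1 and 2. The cells of the clusters overlapped in the sum of the 18 genes, which ran from 27.8 to 876 CPM in a2 and from 496 to 2610 CPM in p1.

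The LMP and LMP-fate lists of the study had medians within the 2-fold limit over all cells from a2 to p1, and the LMP median was below 0 in each run. Its LMP list came from earlier work, while its LMP-fate and EMP-fate lists were built from short reads of the same study, p1 and p2 among them, and are not independent evidence of a direction. Of the 67 LMP genes, 21 had no count in either cluster and 24 had at least 20, with a median log2 ratio of -0.23. The run medians were -0.98, -0.27 and -0.47, and with the p1 cells of the Gfi1 gate alone the median was -1.08. The summed level of the LMP genes was 2207 CPM in a2 and 1450 CPM in p1. Of 11 compared, 0 were higher and 4 were lower in p1: Calcrl, Dpysl2, Ifitm3 and Tsc22d1. Of these Dpysl2 went from -2.06 to -2.88 and Tsc22d1 from -2.13 to -3.09 without 1 p1 cell. The median of 12 LMP-fate genes was 0.16, with 1 of 8 higher (Cd53) and 2 lower (Igf2 and H19), and that of 4 EMP-fate genes was 0.33, with 0 of 3 past the limit in either direction. The LMP-fate median changed sign between runs, at 0.74, 0.41 and -0.45, and was -0.34 with the p1 cells of the Gfi1 gate alone. From b3 to p2 the medians of the LMP, LMP-fate and EMP-fate lists were -1.15, -1.66 and 0.55. The ratio of Cd53 was 5.42 without 1 a2 cell. Of 18 lymphoid genes 2 had at least 20 counts, and the summed level was 342 CPM in a2 and 359 CPM in p1. The only 1 compared, Gimap6, did not pass the limit. Il2rg, the shared gamma chain of cytokine receptors, was at 226 CPM in a2 and 615 CPM in p1, a log2 ratio of 1.44 (1.21 to 1.68), in 21 of 29 and 16 of 17 cells.

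Crip2 (ENSMUSG00000006356.11), a LIM-domain protein of the cardiovascular system, was the mirror image of Fcer1g. It was found in all 29 a2 cells, from 165 to 2116 CPM with a median of 663 CPM. In p1 it was found in 2 of 17 cells, the higher of them at 105 CPM, so every p1 cell was below every a2 cell. The summed level was 816 CPM (763 to 872) in a2 and 10.7 CPM (4.29 to 22) in p1, a log2 ratio of -6.26 (-7.58 to -5.21), and -7.36, -5.32 and -5.28 in runs 1, 2 and 3. Of its 7 p1 counts 6 came from 1 cell, without which the log2 ratio was -8.93. Crip2 was at 1432 CPM in early arterial HE (a1), 231 CPM in b3 and 2.73 CPM in p2.

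The other genes with the lowest ratios included the endothelial genes Procr and Vwf and the arterial gene Gja4. Procr, the endothelial protein C receptor, was at 624 CPM in a2 and 16.8 CPM in p1, a log2 ratio of -5.22 (-6.23 to -4.37), in 25 of 29 and 5 of 17 cells, and -6.04 without 1 p1 cell. Vwf, the von Willebrand factor and a marker of arterial yolk sac HE, had 177 counts in 18 a2 cells and 0 in p1. That is 36.4-fold lower with p1 set to 3 counts, and the counting interval of its log2 ratio ends at -4.87. Gja4, the arterial gap junction protein connexin 37, was at 204 and 6.09 CPM, a log2 ratio of -5.06 (-6.95 to -3.69), and -6.96 without 1 p1 cell. Its level in a2 was patchy, from 0 to 1437 CPM with a median of 17.7 CPM in 15 of 29 cells, and it was higher in a1 at 1153 CPM. F10, which encodes coagulation factor X, had 104 counts in a2 and 0 in p1. That is 21.4-fold lower with p1 set to 3 counts, and the interval ends at a log2 ratio of -4.09.

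Nrep, a small protein linked to TGF-beta signalling, was at 1049 CPM in a2 and 30.5 CPM in p1, a log2 ratio of -5.11 (-5.82 to -4.47), in 20 of 29 and 4 of 17 cells. A single p1 cell held 65% of its p1 counts, and without that cell the ratio was -6.55. Nupr1, a stress-induced nuclear protein, had 295 counts in 19 a2 cells and 1 count in p1. Its log2 ratio was -7.51 with a counting interval of -12.82 to -5.02. Without the p1 cell that held the count it was -5.86, a value that comes from setting p1 to 3 counts. Serpinf1, the secreted factor PEDF, was at 377 and 10.7 CPM, a log2 ratio of -5.15, in 27 of 29 and 2 of 17 cells. Serpinf1 was an arterial gene in these data, as b3 had 8.53 CPM and p2 6.83 CPM. Its leading transcript, Serpinf1-208 with 57.1% of the counts, is annotated as a target of nonsense-mediated decay. Fn1, the matrix protein fibronectin, was at 539 and 22.8 CPM, a log2 ratio of -4.56, and 14 of its 15 p1 counts came from 1 cell, without which the ratio was -8.37. Col4a2, a chain of collagen IV, had 111 counts in a2 and 0 in p1, 22.8-fold lower with p1 set to 3 counts. Cdkn1c, the cell cycle inhibitor p57, was at 98.6 and 4.57 CPM, a log2 ratio of -4.43 (-6.73 to -2.84).

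Several p1 counts of vascular genes sat in 1 cell of the Gfi1 gate, from E9.5 and run 3. That cell held 15 of the 16 Cdh5 counts, 14 of the 15 Fn1 counts, 5 of the 7 Serpinf1 counts and 2 of the 3 Cdkn1c counts of p1. Without it the log2 ratio of Cdh5 went from -2.47 to -6.37, that of Serpinf1 from -5.15 to -6.85 and that of Cdkn1c from -4.43 to -5.92.

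**Figure D3:**
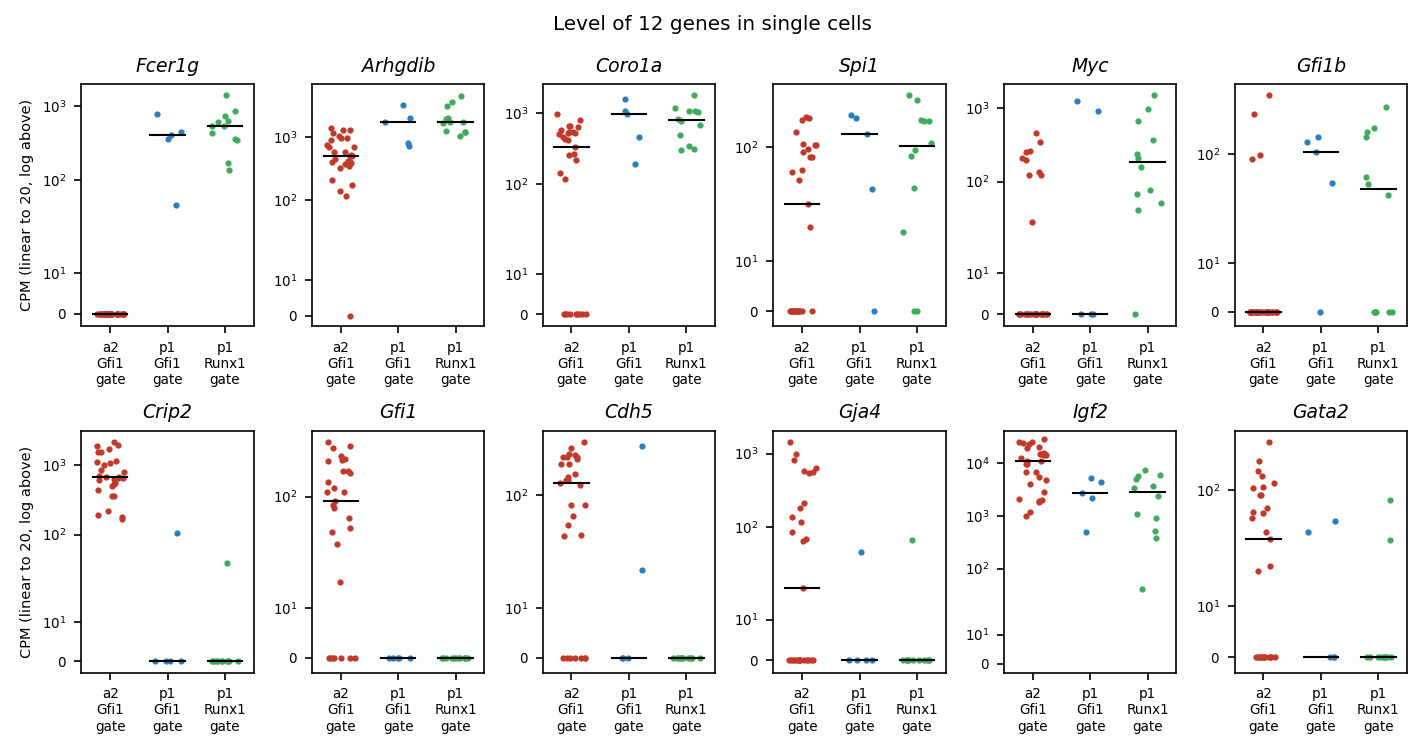
Levels of 12 genes in single cells, in CPM on an axis that is linear to 20 and logarithmic above, for the 29 a2 cells (Gfi1 gate), the 5 p1 cells of the Gfi1 gate and the 12 of the Runx1 gate. Bars are medians; Fcer1g is above 0 in every p1 cell and at 0 in every a2 cell, Crip2 shows the reverse with 2 p1 cells above 0, Gfi1 is above 0 in 22 of 29 a2 cells and in 0 p1 cells, and Myc is above 0 in 2 of 5 and 11 of 12 p1 cells of the gates.

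The endothelial program was lower in p1 in part only. Of 27 endothelial core genes, 22 had at least 20 counts and a median log2 ratio of -1.53, with 21 of the 22 below 0, and of the 19 compared 0 were higher and 12 lower. The run medians were -3.10, -1.96 and -1.21, and the list median was -2.78 without run 3 and -2.47 with the cells of E10.5 alone. The junction genes Cdh5, Cldn5 and Icam2 were at 135, 599 and 379 CPM in a2 and at 24.4, 53.3 and 35 CPM in p1. Pecam1 was at 185 and 38.1 CPM, a log2 ratio of -2.28 (-2.94 to -1.68), and was still found in 8 of 17 p1 cells. The transcription factor Sox17, which drives arterial identity, had 107 counts in 10 a2 cells and 0 in p1, 22-fold lower with p1 set to 3 counts. Its relative Sox18 was at 260 and 86.8 CPM and present in 12 p1 cells. Eng, a TGF-beta co-receptor, had a log2 ratio of -1.46, and Ramp2 and Calcrl, the parts of the adrenomedullin receptor, -1.16 and -1.49.

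Other endothelial genes did not pass the limit. Cd34, shared by endothelium and blood progenitors, was at 466 CPM in a2 and 554 CPM in p1, in all 29 and all 17 cells, and its log2 ratio of 0.25 (0.05 to 0.45) changed sign between runs. Egfl7, a secreted endothelial factor that hosts a microRNA, was at 279 and 267 CPM, a log2 ratio of -0.07 (-0.34 to 0.21). Emcn, Esam and Tek had log2 ratios of -0.15, -0.42 and -0.87. Tie1, an endothelial receptor kinase, had a log2 ratio of -1.37 but was above 0 in run 3, at 0.83. The endothelial genes of p1 thus ran from those without a count, such as Vwf and Sox17, to those as high as in a2, such as Cd34 and Egfl7.

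Arterial genes were the most reduced of the lists. Of the 20 arterial genes listed by the study, 5 had at least 20 counts, and their median log2 ratio was -5.37. That value rests on the 0.5 counts added to genes without a count in p1, and with such genes set to 3 counts it was -3.95. All 4 that were compared were lower: Gja4, Gja5 (connexin 40), Mecom (the transcription factor EVI1) and Pdlim1. Gja5 had 75 and 0 counts and Mecom 95 and 0 counts, 15.4-fold and 19.5-fold lower with p1 set to 3 counts. Cd24a, the surface marker used for arterial yolk sac HE, had 73 counts in 13 a2 cells and 1 in p1. Its log2 ratio was -5.49 with a counting interval of -10.82 to -2.97. Without the p1 cell that held the count it was -3.74, a value that comes from setting p1 to 3 counts. Of the 30 yolk sac endothelium genes of the study 5 were compared, and 2 were higher in p1 and 0 lower: Npl and Tcn2, the vitamin B12 carrier transcobalamin, at a log2 ratio of 1.34. Of 18 Notch pathway genes 1 was compared and did not pass the limit, and the median of the 6 with at least 20 counts was -1.44.

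The surroundings of the endothelial cell, its matrix and junctions, followed the same direction. Of 11 basement membrane and matrix genes with at least 20 counts, all 11 were below 0, with a median of -2.19 (-2.47 with groups without a count set to 3 counts), and 5 of 7 compared were lower (Col4a1, Col4a2, Nid1, Fn1 and Col18a1). Of 15 junction genes all 15 were below 0, with a median of -2.90 (-2.47 with the same setting), and 6 of 9 compared were lower. Ctnnb1, the beta-catenin of junctions and Wnt signalling, was at 410 and 183 CPM, and Ctnnd1, p120-catenin, at 54.5 and 6.09 CPM. Without 1 p1 cell each, the log2 ratio of Ctnnd1 went from -3.16 to -5.11, of Nid1 from -2.53 to -3.22, of Col4a1 from -1.83 to -2.73 and of Fn1 from -4.56 to -8.37. In the TGF-beta and BMP list the median of 9 genes was -1.45 and 2 of 3 compared were lower, Eng and Id3, a target of BMP signalling at 207 and 47.2 CPM. With the p1 cells of the Gfi1 gate alone the medians were -0.88 for matrix, -2.49 for junction and -3.34 for TGF-beta and BMP genes.

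Gfi1 (ENSMUSG00000029275.19) was not detected in p1. It had 129 counts in 22 of 29 a2 cells, from 0 to 411 CPM with a median of 88.7 CPM, and 0 counts in all 17 p1 cells. That includes the 5 p1 cells sorted with the Gfi1 reporter. The summed level was 121 CPM (101 to 144) in a2 and 26.5-fold lower in p1, when p1 is set to 3 counts. All a2 cells were sorted with the reporter at this gene, so their Gfi1 level is not independent of the sort. Against the 5 p1 cells of the same gate the log2 ratio was -3.09, again with 3 counts for p1. In p2, mostly of the Runx1 gate, 0 of 20 cells had a count, and a1 and b3 were at 99.9 and 23.1 CPM. Gfi1b, the paralog of Gfi1 and the family member of erythroid and megakaryocyte cells, went the other way. It was at 33.8 CPM in a2 and 107 CPM in p1, a log2 ratio of 1.66 (1.06 to 2.28), in 4 of 29 and 11 of 17 cells. Run 1 gave most of that ratio, at 3.37, against 0.62 and 1.07 in runs 2 and 3, and without 1 a2 cell it was 2.65.

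The partners of GFI1 in the LSD1 and CoREST complex were mostly lower in p1. Of 7 genes of this list compared, 5 were lower, Gfi1 among them, and Gfi1b was the 1 higher, with a median of -1.43. Rcor1, the CoREST scaffold, was at 49.8 and 16.8 CPM and Hmg20b, its HMG-box subunit, at 71.4 and 21.3 CPM. The histone deacetylases Hdac1 and Hdac2 had log2 ratios of -1.05 and -1.41, and Hdac1 was at -0.86 without 1 a2 cell, above the limit of -1. Rcor1 went from -1.57 to -2.61 without 1 p1 cell. Kdm1a, which encodes LSD1, had a log2 ratio of -1.47 (-2.42 to -0.62), but was above 0 in run 3, at 0.70. These are low levels, of fewer than 15 counts in p1 for each partner.

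Blood transcription factors were split. Of 30 in the list 17 were compared, with 5 higher and 4 lower in p1, and the median of the 25 with at least 20 counts was -0.35. With the p1 cells of the Gfi1 gate alone that median was 0.42. The higher ones were Spi1, Fli1, Gfi1b, Ikzf1 and Myc. Spi1, the myeloid and lymphoid regulator PU.1, was at 62.9 CPM in a2 and 129 CPM in p1, a log2 ratio of 1.04 (0.56 to 1.52), in 16 of 29 and 14 of 17 cells, and 0.88 without 1 p1 cell, below the limit. Ikzf1, the lymphoid regulator Ikaros, was at 7.51 and 65.5 CPM, a log2 ratio of 3.12 (2.02 to 4.42) that was 4.06 without 1 a2 cell, and Fli1, an ETS factor, had a log2 ratio of 2.12. The lower ones were Gfi1, Gata2, Hoxa9 and Mecom. Gata2, a GATA factor needed for HE, was at 55.4 and 12.2 CPM, a log2 ratio of -2.18 (-3.46 to -1.11), in 17 of 29 and 4 of 17 cells, and -3.07 without 1 p1 cell. Hoxa9 had 95 counts in 19 a2 cells and 0 in p1, 19.5-fold lower with p1 set to 3 counts. Runx1 had 25 and 11 counts, too few to be compared. Myb, a regulator of definitive progenitors, was at 72.3 and 47.2 CPM, a log2 ratio of -0.61 (-1.27 to 0.00), and Mycn, which marks HE, at 249 and 195 CPM, a log2 ratio of -0.35. Kit, the sorted receptor, was at 147 and 97.5 CPM. The 8 HE-selective genes of the study, which it chose on these clusters, had a median of -0.83, and of 3 compared Gfi1 was lower.

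**Figure D4:**
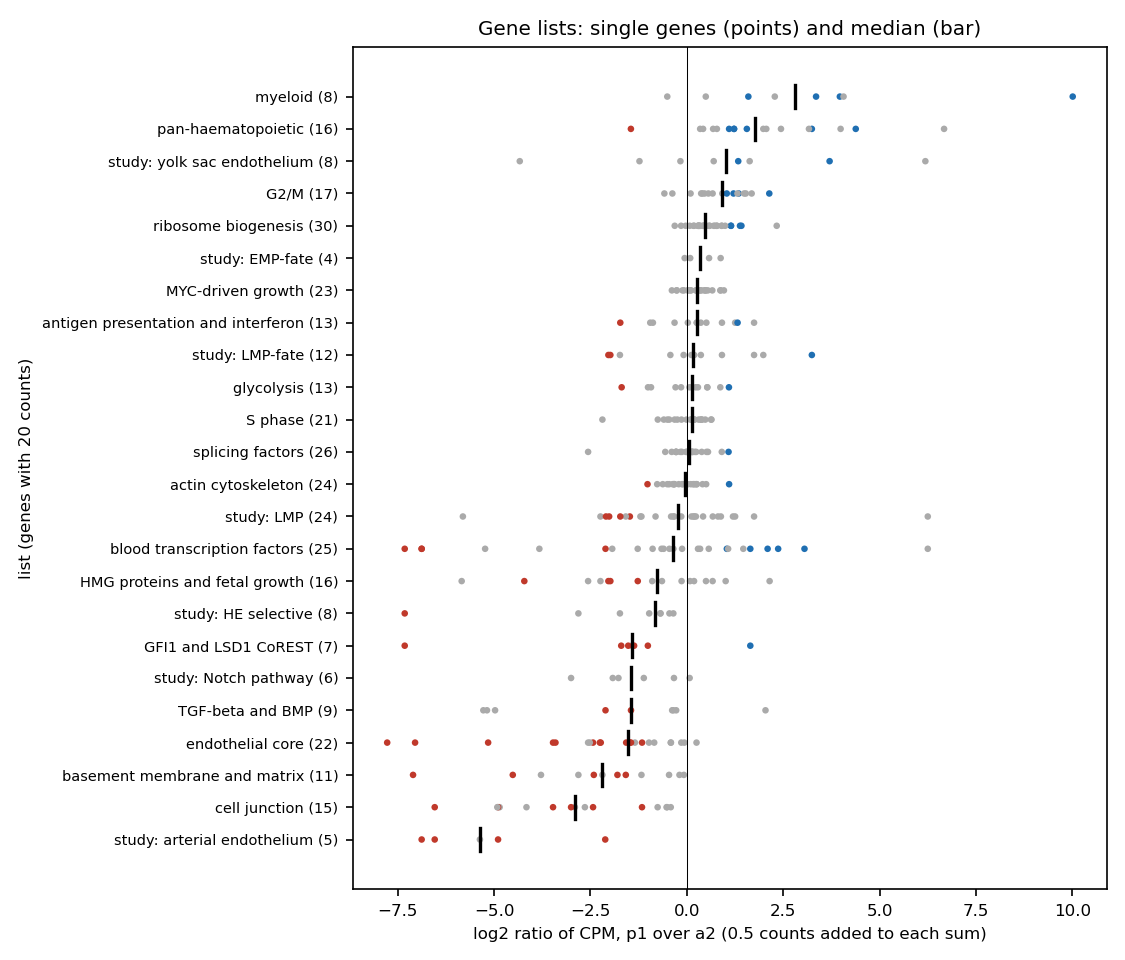
Log2 ratio of CPM, p1 over a2, with 0.5 counts added to each sum, for the genes of each list with at least 20 counts (number in brackets). Points are genes (blue higher in p1, red lower, grey not called) and bars are list medians; the medians run from -5.37 for arterial genes (-3.95 with genes without a count in a cluster set to 3 counts) to 2.82 for myeloid genes, while splicing, actin and S phase lists lie near 0.

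Among the growth and division lists, the G2/M list had the highest median. Of 24 S phase genes 18 were compared and none passed the limit in either direction, with a median log2 ratio of 0.12 that was 0.21, 1.47 and -0.78 in the runs. The G2/M list had a median of 0.92, with 0.87, 0.06 and 0.92 in the runs, and 4 of 13 compared were higher in p1: Cdk1, the mitotic kinase, at 193 and 446 CPM, Aurka at 46 and 204 CPM, Aurkb and Birc5, the last at 1.04 and at 0.76 without 1 p1 cell. Of 30 ribosome biogenesis genes 27 were above 0, with a median of 0.48 and 0.48, 0.44 and 0.62 in the runs, and 4 of 25 compared were higher (Rrs1, Wdr12, Bop1 and Rrp1b), beside the 5.2% of all genes. Without 1 p1 cell each, Bop1 went from 1.15 to 0.79 and Wdr12 to 0.99. Nucleolin (Ncl) was at 691 and 1031 CPM and nucleophosmin (Npm1) at 605 and 810 CPM, log2 ratios of 0.58 and 0.42. Of 22 genes of MYC-driven growth compared, 0 passed the limit in either direction, with a list median of 0.27. Splicing factors had a median of 0.05 with 1 of 23 compared higher, U2af1, at 1.08 and at 0.97 without 1 p1 cell, and actin genes had a median of -0.05 with 1 higher and 1 lower of 24. Glycolysis genes had a median of 0.13, and Slc2a1, the glucose transporter, was lower, at 125 and 38.1 CPM. Genes of antigen presentation and interferon had a median of 0.26, with Psmb10 higher, at 1.33 and just under the limit without 1 p1 cell, and Ifitm3 lower.

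Among the genes that differed, the most abundant in a2 was Igf2. Igf2, the fetal insulin-like growth factor, was at 12379 CPM in a2 and 3021 CPM in p1, a log2 ratio of -2.04 (-2.10 to -1.97), and -2.12, -1.89 and -1.89 in the runs. Its cells ran from 1009 to 29547 CPM in a2 (median 11032 CPM) and from 41.3 to 7621 CPM in p1 (median 2773 CPM), so that the clusters overlapped. H19, the noncoding RNA of the same imprinted domain, was at 1749 and 442 CPM, a log2 ratio of -1.99 (-2.17 to -1.81). Igf2bp2, an RNA-binding protein of Igf2 mRNA, was at 67.6 and 27.4 CPM, a log2 ratio of -1.30 that was -2.34 without 1 p1 cell. These genes belong to a list of HMG proteins and fetal growth genes. Of 16 genes of this list the median was -0.77, and 4 of 11 compared were lower and 0 higher. The run medians were -1.44, -1.25 and 0.05, and with the p1 cells of the Gfi1 gate alone the median was -0.03.

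Markers of other cells were low in both clusters. The summed level of 13 erythroid genes was 58.2 CPM in a2 and 45.7 CPM in p1, with Klf1, Alas2, Slc4a1 and Ahsp at 0. For 9 macrophage genes it was 143 and 187 CPM, with C1qa, C1qb, C1qc, Adgre1, Cx3cr1 and Aif1 at 0. For 12 mesenchyme genes it was 24.0 and 9.14 CPM, and for 13 yolk sac endoderm genes 22.5 and 9.14 CPM, with Afp, Apob, Ttr and Cubn at 0.

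The step from b3 to p2, made of other cells, gave a measure of how far these genes are shared with the plexus trajectory. The a2 cells are of the Gfi1 gate and mostly of E10.5, and the p2 cells are mostly of the Runx1 gate and of E9.0 or E9.5. Stage and gate thus differ along with the trajectory and cannot be told apart from it. Of the 207 genes higher in p1 that had enough counts there, 30 (14.5%) were also higher in p2 by a log2 of 1 or more, against 4.19% of the 3770 genes compared. These 30 were 19% of the 158 genes past that limit. Of the 186 lower genes 61 (32.8%) were lower in p2, against 5.94%, and made up 27.2% of the 224. The runs were not used as a criterion in the b3 to p2 step.

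Some genes went in opposite directions in the trajectories. Higher in p1 but lower in p2 by at least 2-fold were Clec1b, Npl, Hpgd, Cnrip1, Nek6, Il2rg, Trim59 and Smc6. Clec1b was at 430 CPM in b3 and 143 CPM in p2, and Npl at 278 and 77.8 CPM, so their p1 levels of 408 and 152 CPM were met or passed by plexus HE. Hpgd, which breaks down prostaglandins, was at 11.3 and 99.0 CPM in a2 and p1 and at 119 and 20.5 CPM in b3 and p2. Lower in p1 but higher in p2 were Tsc22d1, Tnks2, Hdac2, Ubxn2a and Ehbp1l1, with Hdac2 at 52.6 and 19.8 CPM in a2 and p1 and at 39 and 90.1 CPM in b3 and p2. Without 1 cell the ratio of p1 over a2 was 0.39 for Trim59, 0.93 for Smc6, -0.68 for Tnks2 and -0.93 for Ehbp1l1, which is no longer 2-fold. Others moved with 1 cell without leaving the limit, with Npl at 4.67, Nek6 at 3.04, Hpgd at 3.83, Tsc22d1 at -3.09 and Ubxn2a at -4.73. With the p1 cells of the Gfi1 gate alone Nek6 was at -1.91, the opposite sign. The difference between the trajectories was not tested.

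Isoform fractions, the share of a gene's counts that fell on each transcript, were compared in 1409 genes with at least 50 counts in each cluster. In 383 (27.2%) the fraction of a transcript differed by more than 10 percentage points, in 93 by more than 20 points, and in 197 (14%) by more than 10 points with the same sign in each run. The median of the largest difference per gene was 5.59 points. The leading transcript differed in 186 genes. The runs of 1 cluster also differed from each other. With every gene thinned to 50 counts, 39.9% of genes differed by more than 10 points between a2 and p1, against 36% to 46.6% between runs within a cluster, a range that includes it. At 100 counts it was 20.5%, below the range of 22.9% to 36.4%. Of the 197 genes, 17 were also higher or lower in level, and 82 of all 1409 were.

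The share of counts by transcript class was alike. Protein-coding transcripts took 49.1% of the counts in a2 and 49.5% in p1, transcripts with a retained intron 5.38% and 5.15%, and targets of nonsense-mediated decay 4.08% and 4.10%. Among 125 protein-coding genes with a difference over 10 points, the same sign in each run and at least 10 counts in each cluster and run, the transcript with the largest difference was a decay target higher in p1 in 15 genes and lower in 3. It was a retained-intron transcript higher in 4 and lower in 9, and a protein-coding transcript higher in 42 and lower in 41. The same counts over all genes compared are not given, so these describe the 125 chosen genes only.

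The 12 genes with the largest differences of this kind had from 55 to 260 counts in a cluster. Cdkn2aipnl, a protein related to the ARF-binding protein CARF, had 20.5% (12.4 to 30.8) of its counts on the decay target Cdkn2aipnl-202 in a2 and 61.5% (53 to 69.5) in p1, with differences of 35.8, 76.0 and 32 points in the runs, and the leading transcript changed. Wars1, the tryptophan tRNA ligase, had 20.6% (11.5 to 32.7) of its counts on the decay target Wars1-206 in a2 and 54.4% (41.9 to 66.5) in p1. Dhx30, an RNA helicase, had 6.67% on the decay target Dhx30-216 in a2 and 36.6% in p1. Dcaf8, a substrate receptor of ubiquitin ligases, had 36.7% and 66.1% on Dcaf8-207, but the difference was 2.20 points in run 2. In these 4 genes the decay target had the larger share in p1.

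Protein-coding transcripts made up most of the rest. Wdr1, which promotes the turnover of actin filaments, had 89.1% (78.8 to 95.5) on Wdr1-201 in a2 and 54.5% (41.8 to 66.9) in p1, with -28, -46.7 and -32.2 points in the runs. Apeh, an acylpeptide hydrolase, had 8.05% on Apeh-203 in a2 and 48.4% in p1, and Smim30, a small membrane protein, 48.6% and 12.7% on Smim30-203. Cr1l, the complement regulator Crry, had 28.5% and 58.7% on Cr1l-201, mostly from run 3. For Nudt14, Slc3a2 and Eif2b2 less than 15% of the counts of these transcripts were whole numbers, at 0%, 14.9% and 4.75%, so that most of their reads had been divided between transcripts. The fraction of Nudt14-201, 71% and 31%, of Slc3a2-207, 65.8% and 29.97%, and of Eif2b2-205, 37.8% and 71.5%, depends on that division. Papola-219 had 32.5% and 66.4% of Papola, the poly(A) polymerase, with 36.5% of its counts whole.

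**Figure D5:**
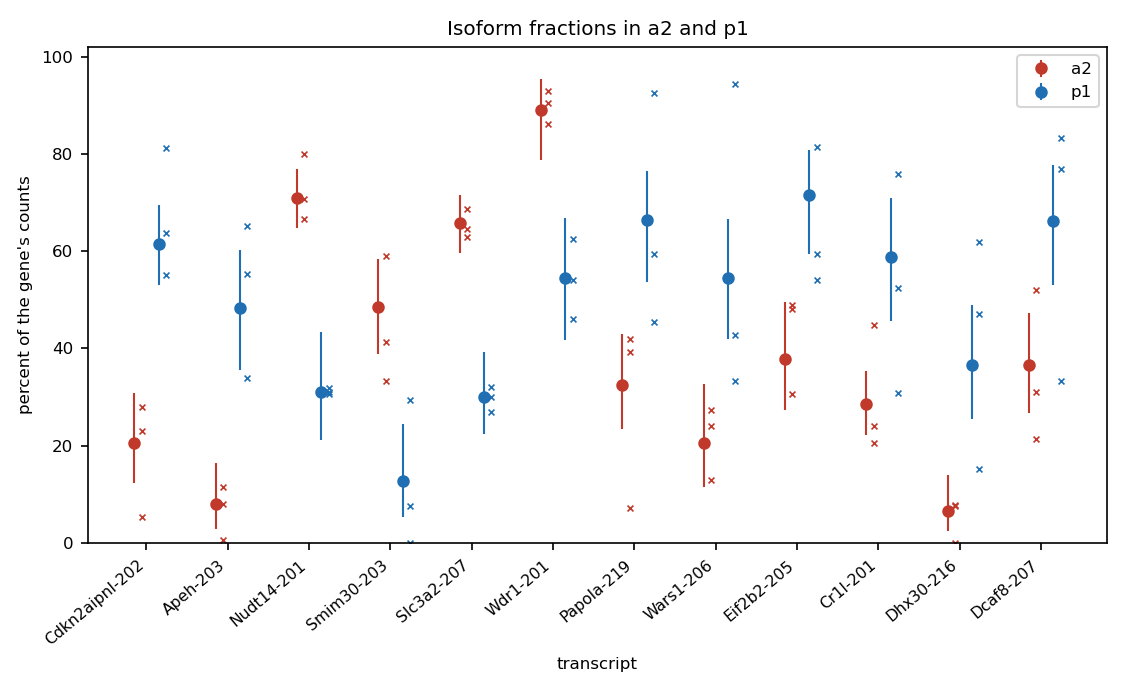
Percent of a gene's counts on the named transcript in a2 (red) and p1 (blue), for the 12 protein-coding genes with the largest difference that had the same sign in each run. Circles are sums over cells with 95% exact binomial intervals and crosses are the 3 runs; the Cdkn2aipnl, Nudt14, Slc3a2 and Wdr1 runs of a2 and p1 do not overlap, while those of Dcaf8 and Cr1l do.

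Genes with many counts shifted less. Rpl34, a ribosomal protein, had 51% on Rpl34-201 in a2 and 58.9% in p1, and Rps24-208 held 8.54% and 18% of Rps24, higher in each run by 15, 8.87 and 7.88 points. Rbm39, a splicing regulator, had 41.2% on the retained-intron transcript Rbm39-205 in a2 and 26% in p1, lower in each run by 19.8, 6.07 and 15.2 points. Pkm, the pyruvate kinase, had 70.2% and 61% on Pkm-201, with the sign reversed in run 2 at 1.22 points. Pfn1-201 held 98.6% of profilin in both clusters, and Cdc42-202 100% of Cdc42 in both.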

How the data were processed

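Complementary DNA made from single sorted yolk sac cells by Smart-seq2 was sequenced on a nanopore instrument. The authors used Dorado for basecalling, bbduk for trimming, and YACRD followed by porechop against chimeras. Their alignment was to transcripts of GENCODE by Minimap2 (minimap2 2.26 in the submitters' processing notes), keeping at most 10 alignments of a read, and NanoCount shared such reads among transcripts. The values used are the resulting estimated counts, as the authors deposited them: raw, and often fractional. Their library-size filter, whose limit of 17595 (the median total of all cells minus 1 scaled median absolute deviation) was applied here, and DESeq2 normalization (DESeq2 1.40.2, R 4.3.0) are not in these values. Estimates below 1e-06 were set to 0. Processed pseudogenes took 25.7% of counts in a2 and 26.4% in p1, so reads of similar copies may be divided between genes.

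Counts of 278369 transcripts were summed to 78317 genes and over the cells of a cluster and divided by its total. The totals per cell, from 19105 to 72659, set the precision. Each library is 1 cell in its own well, doublets were not searched for, and with 1 sample per cluster no test was made. Genes with at least 50 summed counts were compared, and a group without a count was set to 3 counts, also within a run. List medians used genes with at least 20 counts, with 0.5 counts added. Named genes are the 12 highest and 12 lowest among protein-coding and lncRNA genes past the limit with at least 100 counts in the higher group and a count in at least 50% of its cells, members of the lists, and the 12 protein-coding genes with the largest isoform difference. Of the genes this rule covers, some are not reported here. Il2rg, Hpgd and the genes that differ between trajectories were chosen after their values were seen. The members and lists were chosen with earlier results of these data known. Poisson and binomial intervals are exact, at the 95% level, on counts rounded where needed. Of the 24 genes with the highest and lowest ratios, 14 were matched by symbol to RefSeq promoters. The calculation was tested on simulated data. Alternatives covered thinning, runs, gate, plates, stage, limits, size factors and single cells. Sums and intervals were computed in Python 3.11.15 with pandas 2.3.3, scipy 1.17.1 and numpy 2.4.6, figures were drawn with matplotlib 3.10.9, and size factors for 1 alternative came from edgeR 4.0.16 in R 4.3.3.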

Additional observations from a re-analysis of the deposited data

How the results depend on the processing

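None of the 3 list medians below changed sign, but some other list medians did with the Gfi1 gate alone, that of blood transcription factors among them. The balance of higher and lower genes also turned in several settings. The 228 genes higher in p1 were 130 with cells thinned to equal depth (2673 genes compared), 119 in run 2 alone (1489 compared), 605 with at least 10 summed counts, 41 with at least 200 and 76 at a log2 limit of 1.5. The 307 lower genes were 127, 121, 566, 54 and 177 in the same settings, 174 in run 3 alone, 97 (beside 229 higher) with only the p1 cells of the Gfi1 gate and 193 on 2 shared plates. More genes were higher than lower also in run 3 alone (219 higher), without run 1 (228 and 209), in thinned cells and with at least 10 counts. With the Gfi1 gate alone, 11 of the higher and 12 of the lower genes changed sign or reached 0. The 27.2% of genes with an isoform difference over 10 points was 42.4% with at least 20 counts of the gene, 7.12% with at least 200 and 6.60% at a limit of 20 points. The endothelial median of -1.53 was -2.78 without run 3, -2.71 in run 1 alone and -2.47 at E10.5. The pan-hematopoietic median of 1.77 was 2.45 without run 1, 1.19 without run 2, 0.84 in run 3 alone, 1.17 on the shared plates and 1.10 for genes with at least 100 counts. The ribosome biogenesis median of 0.48 was 0.34 without run 3, 0.62 in run 3 alone and 0.59 at E10.5. Thinning, single runs and higher limits compare fewer genes or counts. So do the gate (3683 genes), plates (3295) and stage (3826), where few cells per run also meet the setting to 3 counts. What else moved the values for gate, plates and stage was not tested.

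Leaving out each of the 46 cells in turn, a setting added after the data were seen, gave 200 to 248 higher genes, 270 to 329 lower genes, 25.8% to 27.8% of genes with an isoform difference, and medians of -1.75 to -1.41 (endothelial), 1.59 to 1.89 (pan-hematopoietic) and 0.42 to 0.60 (ribosome biogenesis). No paired analysis was possible because every sample is a single cell, the replicate numbers pair nothing and no result comes from a test.

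Depth limits what a count of 0 shows: it allows up to 4.57 CPM over p1 and up to 14.2 CPM over the 5 p1 cells of the Gfi1 gate.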

Other observations

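Imprinted genes, a list of 25 drawn up after the values of Igf2, H19 and Cdkn1c had been seen, are given as values that support nothing. Of the 9 that were compared, 8 were below 0 and 6 were lower by the same limits as above, beside the 7.0% of all genes, 0 were higher, and the median log2 ratio was -2.04. Without the 3 genes that led to the list, 3 of 6 compared were lower. Besides Igf2, H19 and Cdkn1c these were Mest, at 109 and 6 counts with a log2 ratio of -3.49, Plagl1, at 63 counts in a2 and 1 in p1, and Gnas, with a log2 ratio of -1.14. Igf2 and H19 share a domain and are not independent of each other.

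Xist, the RNA of the inactive X chromosome, had 520 counts in 19 a2 cells and 70 counts in 4 p1 cells, a log2 ratio of -2.20, with -1.69, -2.31 and -2.53 in the runs. The embryos had not been sexed, and the part of sex in the other differences was not tested.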
